A study of Mus musculus with 18 samples.

Results

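The genes described here encode the subunits of the mitochondrial respiratory chain and the ATP synthase. They were the protein-coding genes of the count table whose GENCODE M21 symbol begins with Nduf followed by a, b, c, s or v and a digit, with Uqcr, with Cox4i, Cox5, Cox6, Cox7 or Cox8, or with Atp5, or that is Sdha, Sdhb, Sdhc or Sdhd, together with the mitochondrially encoded mt-Nd, mt-Co, mt-Cytb and mt-Atp genes. The rule used names alone and no measured value. It found 98 genes of the 55536 in the table. Of these, 85 are encoded in the nucleus and 13 in the mitochondrial genome. After the filter on low counts, 86 were tested, 78 nuclear and 8 mitochondrial, among 15204 genes tested in all.

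The respiratory chain passes electrons from NADH and succinate to oxygen and pumps protons across the inner mitochondrial membrane, and the ATP synthase makes ATP from the proton gradient. Complex I oxidises NADH, complex II oxidises succinate, complex III passes electrons to cytochrome c, complex IV reduces oxygen, and complex V is the ATP synthase. Complex II is wholly nuclear encoded, while each of the other 4 needs subunits from both genomes. In T cells, respiration is known to be active in the resting naive state and to grow after activation through the antigen receptor.

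The study sequenced RNA of CD4 T cells from C57BL/6 mice that all carried the OT-II antigen receptor transgene, which recognises an ovalbumin peptide. W131A is a point mutation of ZAP-70, the kinase that binds the activated antigen receptor, and the series presents the W131AOTII mouse as a genetically encoded model of anergy, a state of poor responsiveness. Cbl-b is a ubiquitin ligase that restrains T cell activation, and the stated purpose was to find pathways that it controls. There were 6 groups of 3 libraries each. PCWO, PCO, PWO and PO were peripheral naive cells, sorted from spleens and lymph nodes as CD44low CD62L+ CD25neg Va2+ CD4 T cells, of genotype Cbl-b-/-W131AOTII (PCWO), Cbl-b-/- OTII (PCO), W131AOTII (PWO) and OTII (PO). The other 2 groups were CD25neg Va2+ CD4 single positive thymocytes of genotype W131AOTII and OTII. There were no thymocytes without Cbl-b, and the labels give no mouse ages. Per the labels' protocols, cells came from 3 OTII mice, 12 W131AOTII mice at 4 per group, 3 Cbl-b-/- mice and 6 Cbl-b-/-W131AOTII mice at 2 per group. Which mice went into which library is not stated, so p-values measure the spread between libraries.

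Libraries held 19708218 to 36218772 counts. Cblb counts, read over the whole gene and so no check of the part that is deleted, stood at 82.7 to 111 CPM (counts scaled to a common library size) in PCWO and 51.0 to 90.4 CPM in PCO, against 146 to 177 CPM in PWO and 122 to 142 CPM in PO. All 7 markers of CD4 T cells were above 1 CPM in every library. PCO replicate 2 stood apart with 1.66% of its counts in cytosolic ribosomal protein genes, against a median of 0.702% over the 18 libraries. PWO replicate 2 had a B cell marker sum of 4987 CPM, the highest of all. OTII thymocyte replicate 3 had 0.0270% of its counts in 5 genes that cell handling can induce (Hspa1a, Hspa1b, Fos, Fosb and Jun), against 0.0015% and 0.0012% in the other OTII thymocyte libraries. Calls on members that are lost without these 3 libraries are named as such. The 6 Cbl-b-/- libraries may share a colony or a day, and such a factor cannot be told apart from the loss of Cbl-b. In these bulk samples fewer cells of a type and less RNA per cell also cannot be told apart.

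Levels within the chain were compared as CPM per kb of exon, averaged over the 18 libraries. The 3 highest members were mitochondrially encoded. mt-Cytb, the cytochrome b of complex III, had 1602 CPM per kb and mt-Co1, the catalytic subunit of complex IV, had 1058 CPM per kb. mt-Nd1 had 874 CPM per kb, mt-Nd5 252, mt-Nd2 208, mt-Nd4 186 and mt-Nd6 119, all 5 being membrane subunits of complex I. mt-Nd3, another membrane subunit of complex I, had 1.13 CPM per kb and was the lowest of the 8 tested.

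The most abundant nuclear members were the catalytic subunits of the ATP synthase, Atp5b (beta) at 422 CPM per kb and Atp5a1 (alpha) at 330 CPM per kb. In complex IV, Cox6a1 had 270 and Cox6b1 196 CPM per kb. In complex II, Sdha, the flavoprotein that oxidises succinate, had 210 CPM per kb and Sdhd, a membrane anchor, 143 CPM per kb, and Sdhc, the other anchor, was lowest at 22.6 CPM per kb. In complex I, Ndufa1 had 178 and Ndufa2 144 CPM per kb, and Ndufb2 was the lowest tested at 3.41 CPM per kb. In complex III, Uqcrc1, a core protein, had 145 and Uqcr10 106 CPM per kb, and Uqcrb was lowest at 32.6 CPM per kb. The span of these values within 1 complex was therefore wide, although its subunits are assembled in fixed ratio. Exon length was the union over all annotated transcripts of a gene, 5628 bases for Ndufb2 and 419 for Ndufa1. Some members, such as Uqcrb, also share sequence with other genes. The part of either in the span was not tested.

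Where a subunit has tissue isoforms, the share of each form was read per kb. Cox4i1 made up 99.951% of the Cox4i pair per kb, against 0.0490% for Cox4i2, the lung form. Cox6b1 made up 99.73%, against 0.268% for Cox6b2, the testis form. Cox7a2 made up 61.6% of its set, Cox7a2l 38.0% and the muscle form Cox7a1 0.374%. Cox7a2l is known for joining complexes III and IV into supercomplexes. Of the 3 genes that encode the same mature c subunit of the ATP synthase ring, Atp5g3 held 98.3%, Atp5g1 1.21% and Atp5g2 0.475%. Genes known mainly from other tissues were at or near the bottom. Ndufa4l2 had 1 count over all 18 libraries, Cox8b 7, Cox6a2 15 and Cox4i2 30, and Cox7b2, Cox8c and a second Atp5o identifier had none. None of these 7 was tested.

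Of the 13 mitochondrial genes, mt-Nd4l, mt-Co2, mt-Co3, mt-Atp6 and mt-Atp8 had no count in any library. The mouse nuclear genome holds copies of mitochondrial sequence on chromosome 1, annotated as pseudogenes. A read of 50 bases from mt-Co2 would match another annotated gene at 100% of its possible positions, one from mt-Co3 at 99.86%, from mt-Atp6 at 99.53% and from mt-Nd4l at 98.79%. For mt-Atp8 the share was 0%, but only annotated transcripts were searched. The share was 97.99% for mt-Nd3, 62.23% for mt-Nd4 and 51.14% for mt-Co1. It was 8.19% for mt-Nd2, 7.61% for mt-Nd5 and 0% for mt-Nd1, mt-Nd6 and mt-Cytb. No source used here says how reads that match several genes were counted, so the levels of mt-Nd3, mt-Nd4 and mt-Co1 are uncertain. Counts of 0 for the other 4 genes with copies set no limit on their transcripts. Of the 85 nuclear members, 35 shared no such window with another gene, and among the tested members named here Atp5g2 (38.35%), Ndufb6 (31.56%), Ndufa13 (28.54%), Uqcrb (25.54%) and Cox7c (22.11%) shared over 20%.

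mt-Nd3 was split by the Cbl-b genotype. It lies on the mitochondrial genome at MT:9459-9806, plus strand (GRCm38), as ENSMUSG00000064360. Its nuclear copy Gm28438 (ENSMUSG00000101939) lies at chr1:24612775-24613119, minus strand, and is annotated as an unprocessed pseudogene. mt-Nd3 had 21, 20 and 19 counts in PWO, 10, 24 and 11 in PO, 6, 12 and 14 in W131AOTII thymocytes and 39, 12 and 7 in OTII thymocytes. It had 0 counts in all 3 PCWO and all 3 PCO libraries. Gm28438 showed the opposite, with 41, 37 and 31 counts in PCWO, 22, 19 and 45 in PCO and 0 in each of the other 12 libraries. No library held counts of both genes. The first 60 bases of each transcript from its 5′ end are shown, since they hold the difference between them. The capital letter marks position 3, counted from 1 at the 5′ start of the mt-Nd3 transcript.
mt-Nd3: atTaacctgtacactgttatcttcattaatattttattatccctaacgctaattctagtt
Gm28438: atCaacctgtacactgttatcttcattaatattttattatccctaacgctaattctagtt
Over the 345 bases compared, 344 were identical and the one substitution was T3C, with the base of mt-Nd3 first. The locus a read came from cannot be told apart by any window without that base, apart from those at the end where mt-Nd3 is longer.

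With a floor of 3 counts summed over a group, mt-Nd3 was at least 12.3-fold lower in PCO than in PO and at least 18.3-fold lower in PCWO than in PWO. The tests gave adjusted p = 0.0108 and adjusted p = 0.00757 (edgeR quasi-likelihood, Benjamini-Hochberg over all genes tested). Gm28438 was at least 35.0-fold higher in PCO than in PO and at least 39.6-fold higher in PCWO than in PWO. When the counts of both genes were added before the fit, an alternative chosen after seeing the data, the difference turned positive and did not pass. The summed counts gave a log2 fold of 1.18 (SE 0.57, adjusted p = 0.199) in PCO over PO and 0.98 (SE 0.55, adjusted p = 0.257) in PCWO over PWO. Among groups with Cbl-b, mt-Nd3 did not differ detectably at this depth. The values given for these groups are from the same fit on summed counts, to which Gm28438 added 0 there. The log2 fold was 0.25 (adjusted p = 0.979) in PWO over PO and -1.13 (adjusted p = 0.350) in W131AOTII over OTII thymocytes. It was -0.68 (adjusted p = 0.476) in PO over OTII thymocytes and 0.69 (adjusted p = 0.480) in PWO over W131AOTII thymocytes. As a share of all mitochondrial members' counts mt-Nd3 was 0.0116% ± 0.00099 in PWO, 0.00951% ± 0.00297 in PO, 0.0117% ± 0.00405 in W131AOTII thymocytes and 0.0155% ± 0.0107 in OTII thymocytes (SD, n = 3 each).

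Over the 18 libraries the genes whose CPM followed mt-Nd3 most closely were Myof (Spearman rho 0.84), Tcf7 (0.84), Srd5a3 (0.83), Trim56 (0.83) and Eif4ebp2 (0.82). Among members the closest were Atp5a1 (0.62), Sdha (0.46) and Atp5b (0.37). These are descriptions, since 6 of the 18 libraries tie at 0. No mitochondrially encoded gene was among the 3 closest members.

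**Figure D1:**
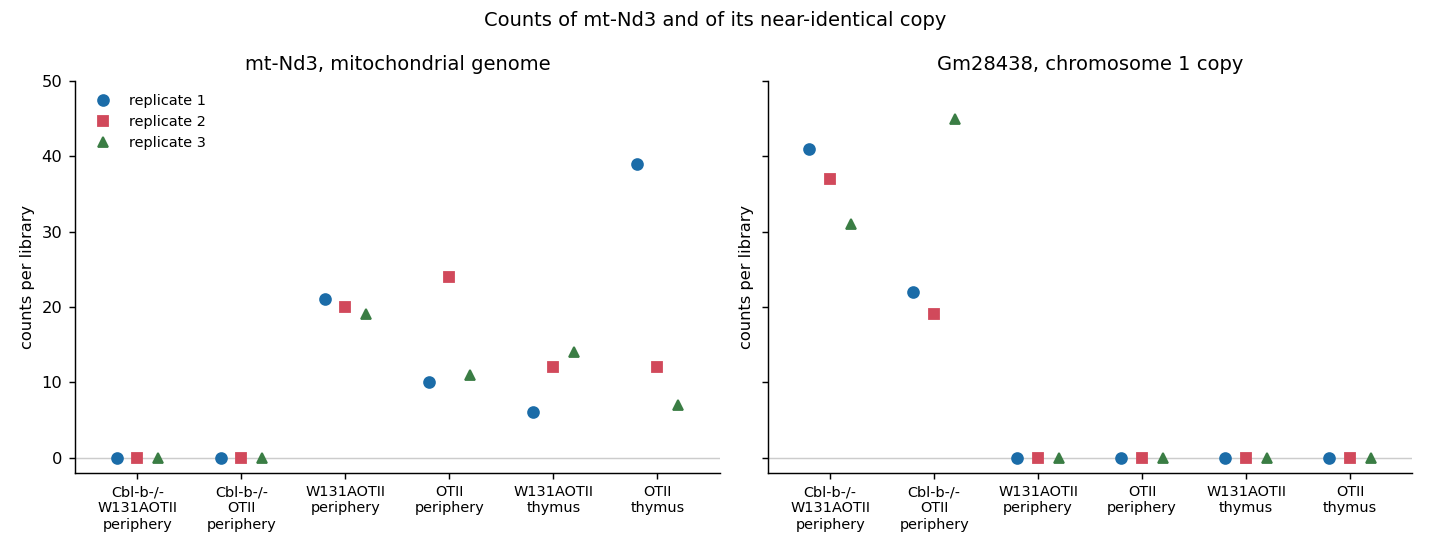
Counts of mt-Nd3 and of its nuclear copy Gm28438 in each library (vertical axis, counts) for the 6 groups of 3 libraries. mt-Nd3 is at 0 in all PCWO and PCO libraries and at 6 to 39 elsewhere, while Gm28438 is at 19 to 45 in PCWO and PCO and at 0 elsewhere.

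Summed over genes, the nuclear members took up about 1% of all counts in most libraries. They took 1.03%, 1.12% and 1.03% in PCWO, 1.25%, 1.69% and 1.04% in PCO, 1.08%, 1.11% and 1.14% in PWO and 1.03%, 1.09% and 1.02% in PO. They took 1.23%, 0.920% and 0.978% in W131AOTII thymocytes and 1.17%, 1.09% and 1.06% in OTII thymocytes. PCO replicate 2 stood above every other library and the lowest was W131AOTII thymocyte replicate 2.

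Of the mitochondrial members, 5 had no count in any library, so the shares and ratios that follow leave out any transcripts of these genes. As counted, the mitochondrial members took up less and varied more. Their share was 0.656%, 0.814% and 0.613% in PCWO, 0.641%, 0.468% and 0.895% in PCO, 0.544%, 0.537% and 0.439% in PWO and 0.461%, 0.610% and 0.456% in PO. It was 0.215%, 0.439% and 0.337% in W131AOTII thymocytes and 0.706%, 0.332% and 0.432% in OTII thymocytes. The 3 PCWO libraries were above the 3 PWO libraries, and every other pair of groups that differ in Cbl-b or W131A alone overlapped.

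The ratio of mitochondrial to nuclear counts averaged 0.653 ± 0.0652 in PCWO, 0.550 ± 0.291 in PCO, 0.459 ± 0.0643 in PWO and 0.484 ± 0.0656 in PO (SD, n = 3 each). It averaged 0.332 ± 0.152 in W131AOTII thymocytes and 0.438 ± 0.15 in OTII thymocytes. Within PCO the ratio ran from 0.278 in replicate 2 to 0.857 in replicate 3, and within W131AOTII thymocytes from 0.174 in replicate 1 to 0.477 in replicate 2. Different libraries were extreme for the 2 genomes. PCO replicate 2 had the highest value for 67 of the 78 nuclear members tested and PCO replicate 3 for 7 of the 8 mitochondrial ones, the exception being mt-Nd3. W131AOTII thymocyte replicate 2 was lowest for 56 of the 78 nuclear members and W131AOTII thymocyte replicate 1 for 7 of the 8 mitochondrial ones. Beside this, the mitochondrial ribosomal RNAs took 0.214% of counts in PCO replicate 3 and 0.0391% in W131AOTII thymocyte replicate 1, the highest and the lowest of all libraries.

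**Figure D2:**
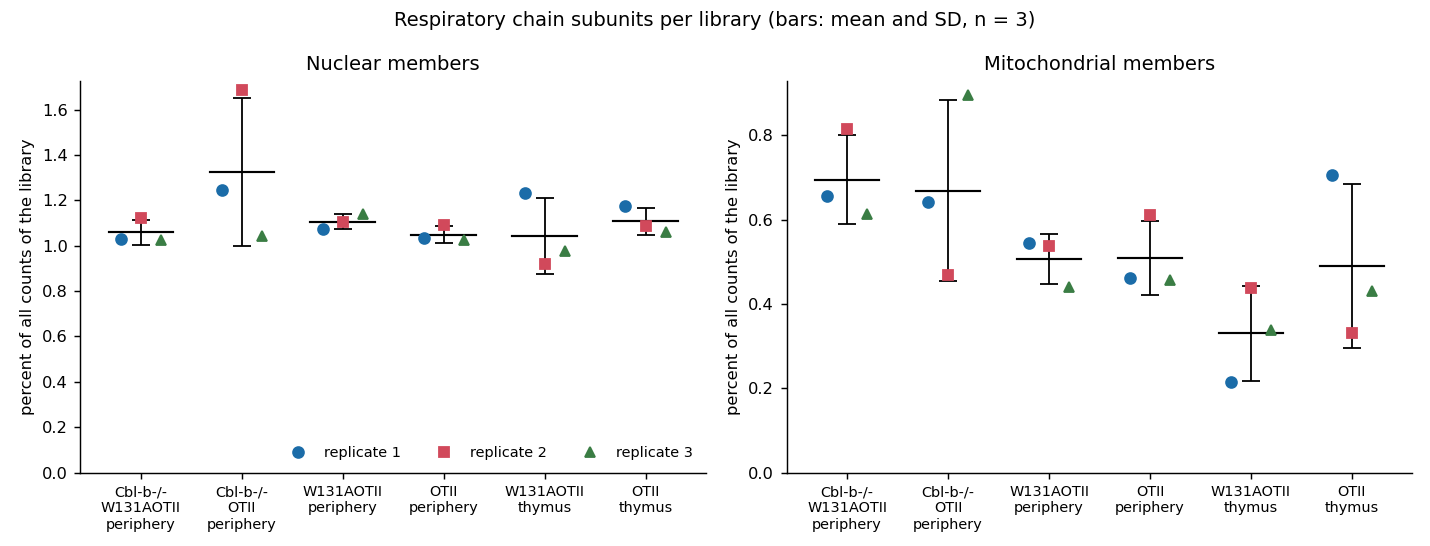
Percent of all counts in nuclear members and in mitochondrial members for each library, with the mean and SD of each group of 3 libraries. Nuclear members lie between 0.920% and 1.69% and mitochondrial members between 0.215% and 0.895%. For nuclear members PCO and W131AOTII thymocytes spread most, and for mitochondrial members PCO and OTII thymocytes.

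**Figure D3:**
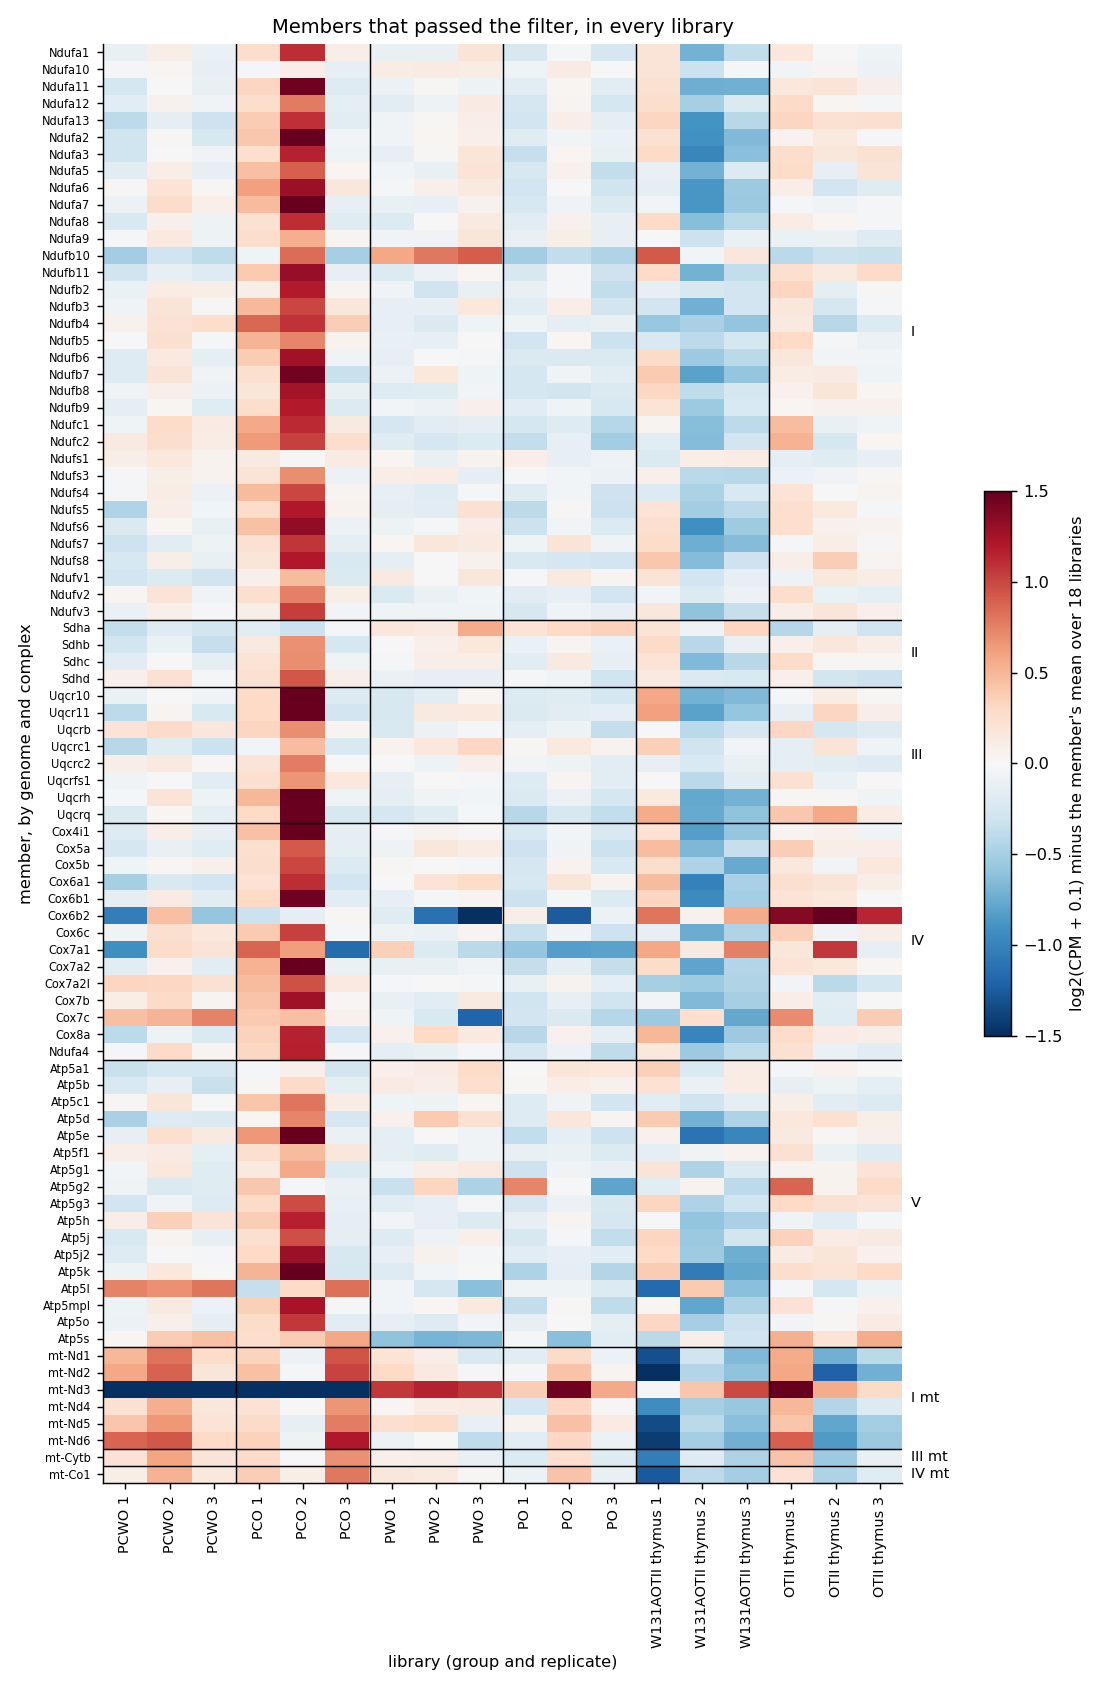
Of the 86 tested members, 85 (rows, by complex) in each of the 18 libraries (columns, by group), as log2 of CPM plus 0.1 minus the member's mean, with colours that saturate at 1.5 in either direction. The column of PCO replicate 2 is high for most nuclear rows and not for the mitochondrial rows, and the mt-Nd3 row is low in all PCWO and PCO columns.

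Cbl-b loss in OTII cells (PCO over PO) asks what Cbl-b controls in peripheral naive cells with normal ZAP-70. In this comparison 24 of the 78 nuclear members rose and 1, Sdha, fell by edgeR, while 5.22% of all genes tested rose and 2.99% fell. Those that rose were 12 of 35 in complex I, 0 of 4 in complex II, 2 of 8 in complex III, 5 of 14 in complex IV and 5 of 17 in complex V. The median log2 fold of the nuclear members was 0.66, beside 0.04 for all genes tested, and 74 of 78 were positive. For 30 nuclear members every PCO library was above every PO library, where 14.9% of all genes were. By complex the median was 0.70 in I, 0.33 in II, 0.73 in III, 0.72 in IV and 0.64 in V. The rise leaned on PCO replicate 2. Without it 1 member, Ndufc2, rose, the median was 0.27 and 69 were positive, and without the 3 libraries that stand apart none passed and the median was 0.27. Leaving out PO replicates also lowered the count, to 6 without PO replicate 1, 5 without replicate 2 and 0 without replicate 3, while 57 rose without PCO replicate 3. In PCO replicate 2 the ribosomal protein share was also the highest of all libraries, and its part in the result was not tested. The handling genes took 0.0065% to 0.0108% of counts in PCO, against 0.0018% to 0.0019% in PO, and regulatory T cell markers summed to 79.5 to 115 CPM in PCO, against 58.7 to 61.4 CPM in PO. Their part was not tested either.

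In complex I, Ndufc2, a small accessory subunit of the membrane arm (chr7:97400003-97407802, plus strand, GRCm38), had 75.6, 98.6 and 57.9 CPM in PCO, against 37.3, 44.5 and 33.8 CPM in PO. The groups did not overlap, with PCO replicate 2 highest and replicate 3 nearest to PO. Its log2 fold was 1.01 (SE 0.20, adjusted p = 0.00636). Ndufb4, another membrane arm subunit, had 15.2, 17.8 and 10.8 CPM in PCO, against 7.97, 7.52 and 7.71 CPM in PO, a log2 fold of 0.92 (SE 0.20, adjusted p = 0.0106). Ndufa6, an accessory subunit of the matrix arm, had 89.8, 145 and 66.1 CPM in PCO, against 48.2, 58.3 and 47.6 CPM in PO, a log2 fold of 0.96 (SE 0.22, adjusted p = 0.0140). All 3 genes had the same order of PCO libraries. Ndufc1 had 30.5, 44.7 and 22.6 CPM in PCO, against 17.2, 17.9 and 15.3 CPM in PO (log2 fold 0.95, adjusted p = 0.0157). Ndufs4, a matrix arm subunit whose loss is known to cause Leigh syndrome in people, had 135, 195 and 100 CPM in PCO, against 86.2, 94.6 and 78.6 CPM in PO (log2 fold 0.73, adjusted p = 0.0159). Ndufb5 and Ndufv2 rose less. Ndufb5 had 101, 117 and 73.2 CPM in PCO, against 57.9, 71.6 and 56.4 CPM in PO (log2 fold 0.64, adjusted p = 0.0192). Ndufv2, a core subunit that holds an iron-sulfur cluster, had 159, 227 and 143 CPM in PCO, against 119, 123 and 110 CPM in PO (log2 fold 0.59, adjusted p = 0.0239).

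In complex IV, Cox7a2l had 87.0, 121 and 69.3 CPM in PCO, against 57.9, 64.7 and 57.1 CPM in PO, a log2 fold of 0.63 (SE 0.15, adjusted p = 0.0199). Cox7b had 99.4, 179 and 75.0 CPM in PCO, against 60, 67.9 and 59.9 CPM in PO (log2 fold 0.91, adjusted p = 0.0206). Cox7a2, the isoform found in most tissues, had 90.5, 178 and 58.8 CPM in PCO, against 49.0, 57.4 and 49.2 CPM in PO (log2 fold 1.07, adjusted p = 0.0267). For each of these genes the lowest PCO library was above the highest PO library. Cox4i1, the nuclear complex IV member with the most counts, was another that leaned on PCO replicate 2. It had 345, 718 and 228 CPM in PCO, against 217, 246 and 217 CPM in PO, and its log2 fold of 0.93 did not pass (adjusted p = 0.052) and was 0.34 without that library.

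In complex V, Atp5c1, the gamma subunit of the rotating stalk, had 456, 596 and 371 CPM in PCO, against 299, 330 and 282 CPM in PO, a log2 fold of 0.64 (SE 0.14, adjusted p = 0.0123). Atp5e, the epsilon subunit of the same stalk, had 91.5, 231 and 54.3 CPM in PCO, against 45.1, 52.4 and 46.9 CPM in PO, a log2 fold of 1.38 (SE 0.36, adjusted p = 0.0258). The most abundant member did not share in this. Atp5b had 1805, 2162 and 1623 CPM in PCO, against 1802, 1901 and 1851 CPM in PO (log2 fold 0.01, adjusted p = 0.976). In complex III, Uqcrh, the hinge protein beside cytochrome c1, had 130, 292 and 88.7 CPM in PCO, against 79.3, 86.8 and 76.8 CPM in PO, with a log2 fold of 1.07. Uqcrfs1, the Rieske iron-sulfur protein, had 146, 195 and 138 CPM in PCO, against 108, 127 and 111 CPM in PO, with a log2 fold of 0.47. Uqcrc1 was level at 578, 814 and 505 CPM in PCO, against 602, 654 and 614 CPM in PO (log2 fold 0.02). The other members that rose were Ndufb3, Ndufa7, Ndufb6, Ndufb8 and Ndufa5 of complex I, Cox6c and Ndufa4 of complex IV and Atp5mpl, Atp5f1 and Atp5k of complex V. Of these, Ndufa7, Ndufa5, Atp5mpl and Atp5k had PCO and PO libraries that overlapped.

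Sdha (chr13:74322254-74350280, minus strand, GRCm38) went the other way in complex II. It had 762, 680 and 836 CPM in PCO, against 981, 1044 and 1078 CPM in PO. All PCO libraries lay below all PO libraries, and the log2 fold was -0.45 (SE 0.13, adjusted p = 0.0473). That call was lost without PCO replicate 1 (adjusted p = 0.103), PCO replicate 2 (adjusted p = 0.149), PO replicate 1 (adjusted p = 0.0703), PO replicate 2 (adjusted p = 0.125) or PO replicate 3 (adjusted p = 0.183). It was also lost without the 3 libraries that stand apart (log2 fold -0.38, adjusted p = 0.196). With offsets for GC content and length it did not pass either (adjusted p = 0.0508).

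The mitochondrial members other than mt-Nd3 did not pass in PCO over PO, although all 7 were positive, between 0.15 and 0.56 with a median of 0.38. mt-Cytb had 2159, 1777 and 2848 CPM in PCO, against 1533, 2094 and 1546 CPM in PO (log2 fold 0.39, SE 0.23). mt-Co1 had 2018, 1668 and 2712 CPM in PCO, against 1474, 2098 and 1445 CPM in PO (log2 fold 0.35, SE 0.22). The groups overlapped for both genes, with PO replicate 2 high and PCO replicate 2 low. mt-Nd1 stood at a log2 fold of 0.44, mt-Nd2 at 0.38, mt-Nd4 at 0.29, mt-Nd5 at 0.15 and mt-Nd6 at 0.56, with adjusted p-values of the 7 genes between 0.308 and 0.792 and no unadjusted p under 0.05. DESeq2 called 0 of them. With offsets for GC content and length the median turned to -0.15 and 0 of 7 stayed positive, so the direction depends on the scaling. Under the same offsets 7 nuclear members rose, and the nuclear median was 0.44. By length, 13 of the 39 shorter nuclear members (419 to 1587 bases) and 11 of the 39 longer ones (1675 to 8086 bases) rose, with median log2 folds of 0.77 and 0.56.

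**Figure D4:**
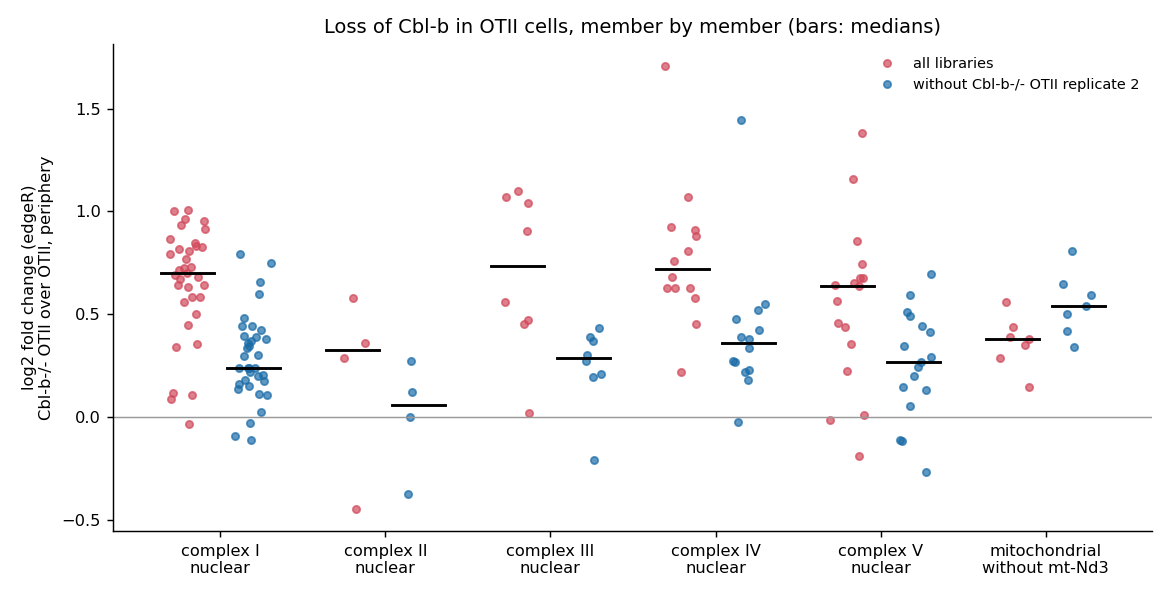
Log2 fold of PCO over PO for each tested member, by complex, with all libraries (red) and without PCO replicate 2 (blue), and bars at the medians. With all libraries the nuclear members centre on 0.66, and without PCO replicate 2 they centre on 0.27. The mitochondrial members other than mt-Nd3 centre on 0.38 and, without that library, on 0.54.

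Genes that build or serve the chain were read from 10 lists. In PCO over PO, 5.22% of all genes tested rose and 2.99% fell. A list with 1 gene called cannot be told apart from those shares. Of 78 genes of the mitochondrial ribosome, which translates the mitochondrial messages, 20 rose and none fell, with a median log2 fold of 0.48. Mrpl1 rose by 0.80 (adjusted p = 0.00658), Mrpl13 by 0.78, Mrpl32 by 0.81 and Mrps14 by 0.68 on the log2 scale. Of 20 assembly factors of complex IV, 5 rose and none fell, with Pet100 at 1.13 (adjusted p = 0.0404), Cmc1 at 1.09 (adjusted p = 0.00342), Coa6 at 0.89, Cox16 at 0.85 and Cmc2 at 0.76. Of 14 assembly factors of complexes II, III and V, 4 rose, namely Sdhaf3 at 0.85, Sdhaf4 at 0.86, Sdhaf2 at 0.42 and Tmem70 at 0.55. The first 3 serve succinate dehydrogenase, whose Sdha fell. Of 16 assembly factors of complex I, 1 rose, Ndufaf5 at 0.72 (adjusted p = 0.0349). Among 5 subunits and partners outside the naming rule, Dnajc15 rose by 1.08 and Atpif1, the inhibitor of the ATP synthase, by 1.04. Carriers gave Mpc2, part of the pyruvate carrier, at 0.94 and Vdac2 at 0.37 among 9, and the citric acid cycle gave Idh2 at 0.48 among 15. Regulators and upkeep genes did not share in this. Of 12 regulators 1 fell, Pprc1, a PGC-1 related coactivator, at -0.51, and of 25 genes for upkeep of mitochondrial DNA and RNA 1 fell, Polg, the mitochondrial DNA polymerase, at -0.67 (adjusted p = 0.0124). Among 7 mitochondrial ribosomal and transfer RNAs mt-Rnr2, the large ribosomal RNA, rose by 1.0 (adjusted p = 0.0343). Without PCO replicate 2, 1 gene of the mitochondrial ribosome and 1 complex IV assembly factor rose, with list medians of 0.20 and 0.17, and none rose in the other lists. The count of mitochondrial ribosome genes that rose also depended on the other libraries: it was 13 without PCO replicate 1, 44 without PCO replicate 3, 4 without PO replicate 1, 2 without PO replicate 2 and 0 without PO replicate 3, where the list median was 0.41. Without the 3 libraries that stand apart the counts that rose were those without PCO replicate 2, and Pprc1 did not pass.

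Many nuclear members are known targets of NRF1, GABPA (also called NRF2) and YY1. Promoter letters of these factors were counted because many members moved together in PCO over PO, a rise that leaned on PCO replicate 2. The windows ran 250 bases before to 50 bases after the transcript start (RefSeq, GRCm38.p6), and 66 members had one in the table. All 27025 promoters served for comparison and were not limited to genes tested here. The motif GCGCATGCG of NRF1, searched on both strands, was found in 8 of 66 members (12.1%) and in 1.95% of all promoters. AAGATGGCG of YY1 was found in 7 of 66 (10.6%), against 1.64% of all promoters. CCGGAAGTG of GABPA was found in 2 of 66 (3.03%), against 2.25% of all promoters. Its shorter form CCGGAAG was found in 24.2%, against 9.93% of all promoters. The shorter GABPA form lies within the longer one, and the 3 factors' motifs share no longer stretch. A match is a description of letters, not a measured binding site. Stretches with the match in capitals are shown for members in which the match and 20 bases on either side lie within the window and before the transcript start.
Atp5k: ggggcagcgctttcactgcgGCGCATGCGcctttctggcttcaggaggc
Ndufa11: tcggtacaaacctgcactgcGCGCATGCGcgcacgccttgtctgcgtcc
Cox6a1: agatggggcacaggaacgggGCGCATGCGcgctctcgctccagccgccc
Atp5g2: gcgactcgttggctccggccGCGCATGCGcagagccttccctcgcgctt
Atp5j: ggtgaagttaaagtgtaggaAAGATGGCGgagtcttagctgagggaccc
They lie at chr5:108434421-108434469 (Atp5k, minus strand), chr17:56717682-56717730 (Ndufa11, plus), chr5:115349092-115349140 (Cox6a1, minus), chr15:102671061-102671109 (Atp5g2, minus) and chr16:84835036-84835084 (Atp5j, minus). Atp5k alone of these 5 was among the 24 that rose. Of the members with a 9-letter match that are not shown, Uqcrh (GABPA, position -12 from the transcript start), Ndufc1 and Ndufs4 (both YY1, after the start) also rose. The rest of the members with such a match did not pass as higher, and 24 of all 78 nuclear members tested rose. Atp5g2, with the same 9 letters as Atp5k, had the lowest level counted in complex V among members tested, at 0.55 CPM per kb. It shared 38.35% of its 50-base windows with other genes, so that level is uncertain.

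Cbl-b loss on the W131A background (PCWO over PWO) gave calls among nuclear members at shares near those of all genes. Of 78 nuclear members 2 rose and 4 fell, where 3.18% of all genes tested rose and 6.08% fell. Nuclear folds centred on -0.01, with 36 positive and 42 negative. Libraries did not overlap for 11 that were higher and 15 that were lower, where 19.6% of all genes were higher and 20.3% lower in this way. Marker sums of regulatory T cells (3 of 3 markers above 1 CPM in every library) were alike, at 215 to 242 CPM in PCWO and 226 to 249 CPM in PWO. B cell marker sums (8 markers) were 1628 to 1786 CPM in PCWO and 2258 to 4987 CPM in PWO. CD4 T cell sums were 13956 to 15372 CPM in PCWO and 15808 to 17698 CPM in PWO. Naive T cell sums were 7795 to 8156 CPM in PCWO and 9425 to 10758 CPM in PWO. CD8 T cell and myeloid sums were also lower in PCWO with no overlap, and erythroid and platelet sums higher. The handling genes took 0.0138% to 0.0268% of counts in PCWO, against 0.0025% to 0.0085% in PWO. The part of these differences in the results was not tested.

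Ndufb10, an accessory subunit of complex I, had 74.4, 86.5 and 82.0 CPM in PCWO, against 160, 184 and 200 CPM in PWO. Every PCWO library was below every PWO library, and the log2 fold was -1.16 (SE 0.25, adjusted p = 0.0121). Without PCWO replicate 1 it was -1.12 and did not pass (adjusted p = 0.0677). Sdha had 660, 745 and 702 CPM in PCWO, against 953, 943 and 1246 CPM in PWO, with a log2 fold of -0.58 (SE 0.13, adjusted p = 0.0172). Without PWO replicate 3, the highest library, it was -0.43 (adjusted p = 0.111), and without PCWO replicate 1 it also did not pass (adjusted p = 0.0937). Atp5a1 had 810, 856 and 855 CPM in PCWO, against 1078, 1113 and 1239 CPM in PWO (log2 fold -0.44, adjusted p = 0.0410). Atp5b had 1518, 1630 and 1407 CPM in PCWO, against 1931, 1894 and 2108 CPM in PWO (log2 fold -0.38, adjusted p = 0.0486). None of these 4 genes had overlapping groups, yet the Atp5b call was lost on leaving out any 1 of the 6 libraries and the Atp5a1 call on leaving out any but PWO replicate 1. Without the 3 libraries that stand apart neither Atp5b (adjusted p = 0.089) nor Atp5a1 (adjusted p = 0.0998) passed. In complex III, where no member passed, Uqcrc1 had 443, 522 and 472 CPM in PCWO, against 616, 661 and 736 CPM in PWO (log2 fold -0.49, adjusted p = 0.075).

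Atp5s, known as a coupling factor of the ATP synthase, rose to 5.83, 7.47 and 7.78 CPM in PCWO, against 3.71, 3.47 and 3.53 CPM in PWO (log2 fold 0.97, SE 0.22, adjusted p = 0.0142). Without PWO replicate 2 it did not pass (adjusted p = 0.0639), nor without PCWO replicate 2 (adjusted p = 0.0521) or replicate 3 (adjusted p = 0.0502), nor without the 3 libraries that stand apart (adjusted p = 0.072). Cox7c, a small complex IV subunit, had 6.73, 7.02 and 8.26 CPM in PCWO, against 4.70, 4.18 and 2.07 CPM in PWO (log2 fold 1.01, SE 0.31, adjusted p = 0.0482). It passed without PWO replicate 1 but on leaving out any other library it did not, with adjusted p = 0.202 without PWO replicate 3 and adjusted p = 0.108 without the 3 libraries that stand apart.

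The mitochondrial members other than mt-Nd3 were all positive in PCWO over PWO, with a median log2 fold of 0.32. None passed by edgeR or DESeq2, and mt-Nd6 alone had an unadjusted p under 0.05. mt-Nd6, the subunit encoded on the other strand of the mitochondrial genome, had 102, 106 and 68.5 CPM in PCWO, against 52.1, 55.7 and 42.7 CPM in PWO. The groups did not overlap, but the log2 fold of 0.88 had an SE of 0.38 (adjusted p = 0.141). mt-Nd1 stood at 0.50, mt-Nd2 at 0.44, mt-Cytb at 0.32, mt-Nd5 at 0.28, mt-Nd4 at 0.24 and mt-Co1 at 0.16. With offsets for GC content and length the median turned to -0.25 and 1 of 7 was positive. By library size in place of TMM scaling, the median of all genes shifted to 0.18, with nuclear members at 0.14 and mitochondrial ones at 0.47. As summed shares the log2 ratio of PCWO over PWO was -0.06 for nuclear members (pooled SD 0.06) and 0.45 for mitochondrial members (pooled SD 0.19). The same ratios in PCO over PO were 0.31 (pooled SD 0.25) and 0.36 (pooled SD 0.37), within or near the spread between libraries.

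In the lists, Cox10 (log2 fold -0.56), which takes part in making the heme of complex IV, and Coa5 (-0.47) fell among 20 complex IV assembly factors. Ogdh (-0.62) was among the citric acid cycle genes that fell, and Ucp2 (-0.72, adjusted p = 0.0128), an uncoupling protein, fell among 9 carriers. Of 12 regulators Pprc1 (-0.51) fell. Sdhaf3 (0.70), Fastkd2 (0.63), Mrpl50 (0.57) and Mrpl32 (0.74) rose, and the mitochondrial ribosome as a list had a median of 0.01. Of all genes tested, 3.18% rose and 6.08% fell, so these few calls are read as single genes, not as list results.

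W131A in the periphery (PWO over PO), the comparison of the anergy model with its control, moved 1 member. Ndufb10 rose, where 1.68% of all genes tested rose and 0.25% fell. Ndufb10 (ENSMUSG00000040048, chr17:24722060-24724478, minus strand, GRCm38) encodes an accessory subunit of the membrane arm of complex I. It averaged 182 ± 20.1 CPM in PWO and 78.6 ± 4.23 CPM in PO (SD, n = 3 each), with libraries at 160, 184 and 200 CPM in PWO, against 74.5, 83.0 and 78.4 CPM in PO. Every PWO library was above every PO library, and the log2 fold was 1.21 (SE 0.25, adjusted p = 0.0126). The call was lost without PO replicate 1 (adjusted p = 0.0622) and without PO replicate 3 (adjusted p = 0.0555).

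The most abundant members of the other complexes were level. Sdha had 953, 943 and 1246 CPM in PWO, against 981, 1044 and 1078 CPM in PO (log2 fold 0.02). The log2 fold was 0.11 for Uqcrc1, 0.18 for Cox4i1 and 0.10 for Atp5b. The nuclear median was 0.11, beside 0.00 for all genes, with 70 of 78 positive. Libraries did not overlap for 8 nuclear members that were higher, where 10.7% of all genes were. No mitochondrial member passed by edgeR, and 0 had an unadjusted p under 0.05 or passed by DESeq2. Their log2 folds lay near 0, at 0.01 for mt-Co1, 0.06 for mt-Cytb, 0.02 for mt-Nd1, -0.02 for mt-Nd2, 0.05 for mt-Nd4, -0.06 for mt-Nd5 and -0.18 for mt-Nd6. With standard errors of 0.21 to 0.38, differences of that size were not detectable. The medians of the 10 lists lay between -0.04 and 0.11. Regulatory T cell markers (3 of 3 above 1 CPM in every library) summed to 226 to 249 CPM in PWO, against 58.7 to 61.4 CPM in PO, and their part in the Ndufb10 result was not tested. The PWO libraries serve both here and in PCWO over PWO, so the Ndufb10 values of both comparisons are not independent.

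Across the 6 groups Ndufb10 was high in both W131A groups with Cbl-b. W131AOTII thymocytes had 201, 104 and 120 CPM, against 80.7, 85.4 and 84.7 CPM in OTII thymocytes, which did not overlap, but the log2 fold of 0.76 (SE 0.25) did not pass (adjusted p = 0.124). PCO had 102, 191 and 75.8 CPM and overlapped with PO (log2 fold 0.65, adjusted p = 0.112). In order of their means, PWO stood at 182, W131AOTII thymocytes at 142, PCO at 123, OTII thymocytes at 83.6, PCWO at 81.0 and PO at 78.6 CPM, and the last 3 lay within a few CPM of each other.

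Neighbours within 100000 bases and alike genes were looked up after the values of Ndufb10 had been seen. Of 9 other tested genes in that window, Msrb1 came closest to passing in PWO over PO, with a log2 fold of 0.96 (adjusted p = 0.0943), and Rps2, the nearest, had 0.20. In PCWO over PWO, Tbl3 fell by 0.68 on the log2 scale (adjusted p = 0.0226) and Msrb1 by 0.91 (adjusted p = 0.0450). Over the 18 libraries the genes closest to Ndufb10 were Pa2g4 (Spearman rho 0.86), Ciapin1 (0.83), Jpt1 (0.82), H2-DMa (0.80) and Tsen54 (0.80). Atp5b (0.74) and Uqcrc1 (0.64) were among the closest members.

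**Figure D5:**
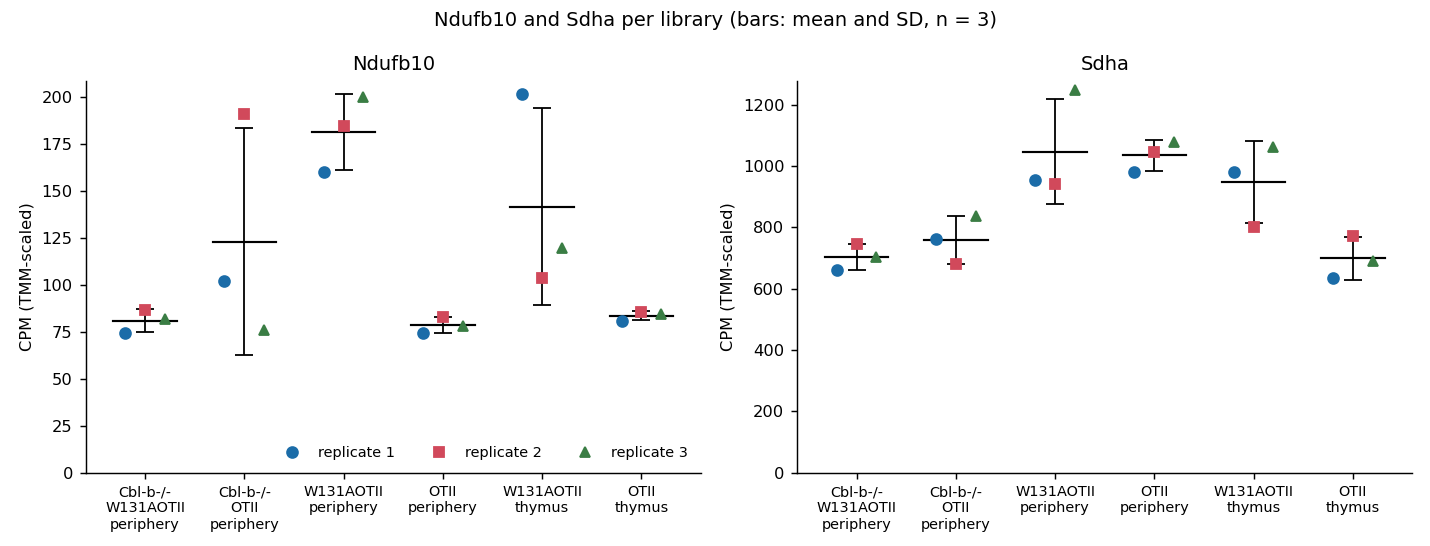
CPM of Ndufb10 and Sdha in each library with the mean and SD of each group of 3. For Ndufb10 the PWO libraries sit between 160 and 200 CPM, above all PCWO and PO libraries, and for Sdha the PCWO and PCO libraries sit between 660 and 836 CPM, below all PWO and PO libraries.

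The interaction asks whether Cbl-b loss acted differently with W131A than without it. Ndufb10 was the 1 member that passed, where 0.0395% of all genes were higher and 0.592% lower. Its Cbl-b effect was lower by 1.81 on the W131A background, a log2 difference of -1.81 (SE 0.36, adjusted p = 0.0172). It stayed past the threshold without PCO replicate 2 at -1.35 (adjusted p = 0.0222), did not without PO replicate 3 (adjusted p = 0.0580), stood beside Ndufa6 without PCO replicate 3, and stood at -1.34 (adjusted p = 0.0698) without the 3 libraries that stand apart. Over the nuclear members the median difference was -0.62 with 74 of 78 negative, and it was -0.30 without those libraries. The mitochondrial members showed no such shift, with a median of 0.06. For Sdha the difference was -0.13 (SE 0.19, adjusted p = 0.828), so its fall was not shown to differ between backgrounds.

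W131A without Cbl-b (PCWO over PCO) passed no member by edgeR, where 0.802% of all genes rose and 1.09% fell. At an unadjusted p under 0.05, 56 nuclear members were lower and 0 mitochondrial ones differed, and DESeq2 called 6 nuclear members lower. How many of all genes did so at these thresholds was not counted. The nuclear median was -0.53, beside -0.02 for all genes, and 75 of 78 were negative. Without the 3 libraries that stand apart it was -0.17, and without PCO replicate 3, the PCO library with the lowest nuclear share, 40 members passed as lower. Cox4i1 had 222, 271 and 233 CPM in PCWO, against 345, 718 and 228 CPM in PCO (log2 fold -0.83, adjusted p = 0.148). Atp5b was at -0.30 (adjusted p = 0.20), Uqcrc1 at -0.40 and Sdha at -0.11. The mitochondrial genes lay between -0.18 for mt-Co1 and 0.14 for mt-Nd6. PCWO and PCO both lack mt-Nd3 counts, so no fold is given for it. Regulatory T cell markers summed to 215 to 242 CPM in PCWO, against 79.5 to 115 CPM in PCO. Naive T cell sums were lower, at 7795 to 8156 CPM in PCWO and 8413 to 8620 CPM in PCO. CD4 T cell sums were 13956 to 15372 CPM in PCWO and 16441 to 25352 CPM in PCO. CD8 T cell, B cell and myeloid sums were also lower in PCWO with no overlap. The handling genes took 0.0138% to 0.0268% of counts in PCWO, against 0.0065% to 0.0108% in PCO. The part of these differences was not tested. In the lists 1 gene passed, the transfer RNA gene mt-Tq at -1.5 (adjusted p = 0.0271), and the mitochondrial ribosome had a median of -0.37.

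W131A in the thymus (W131AOTII over OTII thymocytes) also passed no member by edgeR, where 1.73% of all genes rose and 1.04% fell. At an unadjusted p under 0.05, 2 nuclear members, Sdha and Ndufb10, were higher, 7 nuclear and 4 mitochondrial ones lower, and DESeq2 called 1, Sdha, higher. The share of all genes at these thresholds was not counted. The nuclear median was -0.33 with 68 of 78 negative. Marker sums that did not overlap included those of erythroid cells and platelets, at 2.97 to 24.9 CPM in W131AOTII thymocytes and 0.393 to 0.802 CPM in OTII thymocytes, and those of naive T cells, at 6304 to 7860.1 CPM in W131AOTII thymocytes and 8237 to 8618 CPM in OTII thymocytes. They also included those of regulatory T cells, at 61.2 to 81.0 CPM in W131AOTII thymocytes and 28.8 to 35.0 CPM in OTII thymocytes. CD4 T cell sums were 17426 to 19848 CPM in W131AOTII thymocytes and 23325 to 25665 CPM in OTII thymocytes. Of the CD4 T cell markers, Trac, Cd5 and Cd3g did not overlap and Cd4, Cd3d, Cd3e and Lck did. Sums of immature thymocytes also did not overlap, at 497 to 695 CPM in W131AOTII thymocytes and 375 to 448 CPM in OTII thymocytes. Of their markers, Dntt, Themis and Ptcra did not overlap and Rag1, Rag2 and Cd1d1 did. The same sum stood at 521 to 587 CPM in PO, so it does not mark immature cells alone. Sums of thymic stroma did not overlap either, at 13.3 to 18.3 CPM in W131AOTII thymocytes and 9.53 to 11.6 CPM in OTII thymocytes. They were nearly all Epcam, with the other stroma markers close to 0 CPM. The part of these marker sums in the values was not tested. The mitochondrial genes all had negative log2 folds. mt-Nd4 had 129, 175 and 166 CPM in W131AOTII thymocytes, against 347, 182 and 214 CPM in OTII thymocytes (log2 fold -0.66, adjusted p = 0.113), with no overlap. mt-Nd6 had 20.6, 38.9 and 33.5 CPM in W131AOTII thymocytes, against 103, 30.8 and 37.6 CPM in OTII thymocytes (log2 fold -0.88). The others lay between -0.62 for mt-Nd1 and -0.51 for mt-Cytb. Libraries spread widely, with OTII thymocyte replicate 1 the highest and W131AOTII thymocyte replicate 1 the lowest of the 6 thymic libraries. Sdha had 981, 802 and 1063 CPM in W131AOTII thymocytes, against 634, 771 and 691 CPM in OTII thymocytes (log2 fold 0.44, adjusted p = 0.091). Uqcrc1 was at 0.03, Cox4i1 at -0.34 and Atp5b at 0.20. Ndufa3 and Ndufa13 passed as lower without W131AOTII thymocyte replicate 1, Sdha passed as higher without W131AOTII thymocyte replicate 2, and mt-Nd4 passed as lower without OTII thymocyte replicate 2. In the lists Cmc1 fell by 0.79 (adjusted p = 0.0324) and Polg2, the accessory subunit of the mitochondrial DNA polymerase, by 0.60 (adjusted p = 0.0329) on the log2 scale.

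Periphery and thymus were compared within each genotype, and differ in tissue, maturity and the markers used to sort. Whether the same mice gave cells of both tissues is not stated, and the test treated the libraries as independent. In OTII cells (PO over OTII thymocytes) 1 nuclear member rose and 2 fell, where 7.75% of all genes rose and 10.6% fell. Sdha had 981, 1044 and 1078 CPM in PO, against 634, 771 and 691 CPM in OTII thymocytes, with a log2 fold of 0.57 (SE 0.13, adjusted p = 0.00544) and no overlap. Cox6b2, the testis isoform, had 0.50, 0.137 and 0.430 CPM in PO, against 1.37, 1.80 and 1.14 CPM in OTII thymocytes (log2 fold -2.0, SE 0.58, adjusted p = 0.0192). It was low in both tissues. Atp5s had 5.57, 3.66 and 5.09 CPM in PO, against 8.30, 6.58 and 8.43 CPM in OTII thymocytes (log2 fold -0.70, SE 0.22, adjusted p = 0.0297). The nuclear median was -0.23 with 65 of 78 negative, and 33 were lower with no overlap, where 20.7% of all genes were. Without PO replicate 2, only Sdha of these 3 passed. Cox6b2 also did not pass without OTII thymocyte replicate 2 (adjusted p = 0.0715). Atp5s also did not pass without PO replicate 3 (adjusted p = 0.0628), OTII thymocyte replicate 1 (adjusted p = 0.0863), OTII thymocyte replicate 3 (adjusted p = 0.0912) or the 3 libraries that stand apart (adjusted p = 0.094), nor with no filter (adjusted p = 0.134). B cell marker sums were 2175 to 2535 CPM in PO, against 673 to 852 CPM in OTII thymocytes, and regulatory T cell sums 58.7 to 61.4 CPM in PO, against 28.8 to 35.0 CPM in OTII thymocytes, and their part in the results was not tested. Uqcrc1 was at 0.08. No mitochondrial member passed by edgeR, 0 at an unadjusted p under 0.05 and 0 by DESeq2. Without OTII thymocyte replicate 1, the library highest in these genes, mt-Nd2 and mt-Nd5 rose. Their log2 folds over all libraries were 0.21 for mt-Co1, -0.02 for mt-Cytb, 0.11 for mt-Nd1, 0.41 for mt-Nd2, 0.03 for mt-Nd4, 0.40 for mt-Nd5 and 0.00 for mt-Nd6.

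In W131AOTII cells (PWO over W131AOTII thymocytes) 1 nuclear and 3 mitochondrial members rose and none fell, where 8.07% of all genes rose and 11.2% fell. mt-Co1 had 1753, 1731 and 1582 CPM in PWO, against 655, 1196 and 1099 CPM in W131AOTII thymocytes (log2 fold 0.78, SE 0.22, adjusted p = 0.0177). mt-Nd4 had 250, 267 and 268 CPM in PWO, against 129, 175 and 166 CPM in W131AOTII thymocytes (log2 fold 0.74, SE 0.21, adjusted p = 0.0179). mt-Nd5 had 517, 525 and 400 CPM in PWO, against 171, 327 and 281 CPM in W131AOTII thymocytes (log2 fold 0.89, SE 0.28, adjusted p = 0.0284). All 8 mitochondrial members were higher with no overlap, where 15.4% of all genes were, and W131AOTII thymocyte replicate 1 was the lowest library for 7 of them. Without it no mitochondrial member passed. mt-Nd4 also did not pass without PWO replicate 3 (adjusted p = 0.0556). mt-Nd5 did not pass without PWO replicate 1 (adjusted p = 0.0757), PWO replicate 2 (adjusted p = 0.0808), W131AOTII thymocyte replicate 3 (adjusted p = 0.0546) or the 3 libraries that stand apart (adjusted p = 0.0587), nor by library size scaling (adjusted p = 0.069). B cell marker sums were 2258 to 4987 CPM in PWO, against 651 to 954 CPM in W131AOTII thymocytes, and regulatory T cell sums 226 to 249 CPM in PWO, against 61.2 to 81.0 CPM in W131AOTII thymocytes. Their part in the results was not tested. mt-Nd2 was at 0.93, mt-Nd1 at 0.74, mt-Nd6 at 0.69 and mt-Cytb at 0.54 and did not pass. Among nuclear members Cox7a2l had 61.5, 62.0 and 61.9 CPM in PWO, against 44, 43.1 and 45.8 CPM in W131AOTII thymocytes (log2 fold 0.48, SE 0.15, adjusted p = 0.0325), and the nuclear median was 0.16. The Cox7a2l call was lost on leaving out any 1 of the 6 libraries, with adjusted p-values between 0.0516 and 0.0751, while 7 other nuclear members passed without W131AOTII thymocyte replicate 1. Sdha was at 0.14, Uqcrc1 at 0.15 and Atp5b at 0.07.

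That the W131A effect differs between periphery and thymus was tested directly, and no member passed by edgeR, where 0.296% of all genes were higher and 0.0855% lower. At an unadjusted p under 0.05, Cox6c, Atp5mpl, Ndufa5, Ndufb5, Ndufc2 and mt-Nd4 were higher and Sdha was lower, and DESeq2 called 0. A share of all genes at that unadjusted p was not counted. The median difference was 0.45 for nuclear members, with 73 of 78 positive, and 0.57 for mitochondrial ones. In the lists, Atpif1 was lower in the periphery in both genotypes, at -1.51 in PO over OTII thymocytes and -1.21 in PWO over W131AOTII thymocytes, and Dnajc15 higher, at 0.87 and 1.33. Mrps6 was lower at -1.03 and -0.67, and Mrps18b and Mrpl38 were higher in both. Pprc1 at 0.76 and Ppargc1b at 0.73, 2 coactivators of the PGC-1 family, rose in PO over OTII thymocytes.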

How the data were processed

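The authors deposited 1 table of raw counts per gene and library, 55536 Ensembl identifiers by 18 libraries, from single-end 50-base reads. Per the submitters' processing notes, STAR 2.7.2, DESeq2 and GRCm38 were used. No source used here gives the counting step, its annotation or its strand setting, so overlapping and antisense genes are uncertain. All identifiers matched GENCODE M21. The members and the 10 gene lists were chosen with earlier results of these data known.

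CPM were computed with TMM factors, and shares from raw counts. The main test was edgeR's quasi-likelihood test (edgeR 4.0.16, limma 3.58.1, R 4.3.3) over all 18 libraries with 1 mean per group, 12 residual degrees of freedom, the filterByExpr filter, robust estimation and Benjamini-Hochberg adjustment over 15204 genes (threshold 0.05), in 9 comparisons. It was tested on simulated data. Summed shares and list medians carry no test. Shares of all genes called are given for the main test only. They were not counted at an unadjusted p, by DESeq2 or with libraries left out. Alternatives were DESeq2 1.42.0, library size scaling, scaling without mitochondrial genes, no filter, offsets for GC content and length, the replicate number as a block, only the groups compared, leaving out each library and leaving out the 3 libraries that stand apart. Adding the counts of mt-Nd3 and Gm28438 was chosen after seeing the data. Depth was 19708218 to 36218772 counts per library, and floors of 3 counts over a group cover counting error only.

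Named were every mitochondrial member, nuclear members past the threshold (up to 12 per direction by adjusted p), the most abundant member of a complex where none passed, the most and least abundant per kb, isoform sets, and up to 4 genes per list. Some genes that this rule names are not reported here. Replicate numbers were not taken as pairs in the main test. Of 45 same-numbered pairs, 6 had deviations correlated over 0.1 (median 0, range -0.3 to 0.21). Most of these pairs join unlike genotypes, so the check cannot exclude that peripheral and thymic libraries of a genotype share mice. None of the 18 pairs of libraries within a group agreed within counting noise. Shared 50-base windows were searched on both strands of annotated transcripts only.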

Additional observations from a re-analysis of the deposited data

Results flagged for a closer look

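Ndufb10 was flagged because the effect of Cbl-b loss on it differed between the backgrounds with and without W131A. The difference of the log2 folds, PCWO over PWO minus PCO over PO, was -1.81 (SE 0.36, adjusted p = 0.0172, edgeR). The groups it rests on had 74.4 to 86.5 CPM in PCWO, 75.8 to 191 CPM in PCO, 160 to 200 CPM in PWO and 74.5 to 83.0 CPM in PO. PCO replicate 2, at 191 CPM, was the PCO library farthest from PO.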

How the results depend on the processing

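Counts of nuclear members called in PCO over PO, 25 as reported, became 44 by DESeq2, 40 by library size scaling, 52 with no filter, 7 with offsets for GC content and length, 7 from only the groups compared and 0 without the 3 libraries that stand apart. In PCWO over PWO the nuclear count of 6 became 2 with offsets, 17 from only the groups compared and 2 without the 3 libraries. In PCWO over PCO the count of 0 became 6 by DESeq2, 36 with no filter and 2 with offsets, and in W131AOTII over OTII thymocytes it became 1, 6 and 1. In PO over OTII thymocytes the 3 became 6 with offsets and 13 from only the groups compared. In PWO over W131AOTII thymocytes the 1 became 0 by library size and 5 with no filter or with offsets. For the interaction the 1 became 31 with no filter and 0 without the 3 libraries, and for the difference of W131A effects the 0 became 1 with no filter. Mitochondrial counts became, with no filter, 2 in PCO over PO, 3 in PCWO over PWO, 7 in W131AOTII over OTII thymocytes, 2 in PO over OTII thymocytes and 7 in PWO over W131AOTII thymocytes. They became, with offsets, 1 in PO over OTII thymocytes and 6 in PWO over W131AOTII thymocytes. From only the groups compared they became 0 in PCO over PO and 3 in PCWO over PWO. DESeq2 gave mt-Nd3 no adjusted p in PCO over PO, which left a count of 0. The cause of these moves was not tested. With mt-Nd3 and Gm28438 added together, the mt-Nd3 fold reversed to 1.18 in PCO over PO and 0.98 in PCWO over PWO. The summed nuclear level in PCWO over PWO moved to -0.21 with TMM-scaled CPM.

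Leaving out 1 library at a time, nuclear counts ranged over 0 to 1 in PWO over PO, 0 to 58 in PCO over PO, 1 to 5 in PCWO over PWO, 0 to 40 in PCWO over PCO, 0 to 2 in W131AOTII over OTII thymocytes, 1 to 3 in PO over OTII thymocytes, 0 to 7 in PWO over W131AOTII thymocytes and 0 to 2 for the interaction. Mitochondrial counts ranged over 0 to 1 in W131AOTII over OTII thymocytes, 0 to 2 in PO over OTII thymocytes and 0 to 3 in PWO over W131AOTII thymocytes. With the replicate number as a block, 19 nuclear members rose in PCO over PO, but whether same-numbered libraries share more than a number is not stated. Of the recomputed counts and summed levels, 356 stayed close to the reported ones and 60 moved. For single genes, 365 recomputed values kept direction and side of the threshold and 227 kept direction but no longer passed.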
